A study of Bos taurus with 20 samples.

Results

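The miR-30 family was described in the small RNA libraries of bull spermatozoa. Its members were taken by name, as every row of the deposited table that starts with bta-miR-30 followed by a letter from a to f. This gave 7 of the 1029 miRNAs in the table, namely bta-miR-30a-5p, bta-miR-30b-5p, bta-miR-30c, bta-miR-30d, bta-miR-30e-5p, bta-miR-30f and a single opposite arm, bta-miR-30b-3p. The libraries came from frozen-thawed semen of 20 Holstein-Friesian bulls used in artificial insemination, 10 of high fertility (HF) and 10 of low fertility (LF), with 1 library per bull. Fertility was an adjusted score of pregnancy per service, and the groups differ by that score alone in the labels. For each bull of either group, semen from different ejaculates was combined into 1 pool and washed in a buffer that lyses somatic cells before RNA was extracted, so ejaculates cannot be separated. Semen that failed routine quality control was not used in either group.

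miRNAs are short RNAs that guide Argonaute proteins to messenger RNAs, mainly through a short stretch near their 5′ end, the seed. The miR-30 family shares its seed across all vertebrates and is known for high levels in epithelia and for targets in autophagy and in the epithelial to mesenchymal transition. Its members fall into kinds by the remainder of the sequence, since miR-30a, miR-30d and miR-30e are nearly identical to each other, while miR-30b and miR-30c share a different 3′ end. Transcription stops in late spermatids, and the paper states that spermatozoa gain non-coding RNAs in spermatogenesis and on passage through the epididymis. Other sources were not examined here.

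In the RefSeq annotation of ARS-UCD2.0, which was used for gene neighbours only, the family comes from 6 genes in 3 pairs. MIR30D lies next to MIR30B, MIR30A next to MIR30F, and MIR30C next to MIR30E, with 0 annotated genes lying wholly between the genes of a pair. MIR30C and MIR30E both lie within NFYC, which encodes a subunit of the transcription factor NF-Y. Each pair thus joins a member of the miR-30a, miR-30d and miR-30e kind with another member.

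The values are normalized counts, that is, counts scaled by the authors to library size with a TMM factor, which corrects for differences in composition between libraries. In such bulk samples, fewer cells of a type and less RNA per cell cannot be told apart. The reads behind them ranged from 103204 to 3097581 per library. HF replicate 17 was the shallowest with 103204 reads, followed by LF replicate 11 with 310186 and LF replicate 13 with 438649, and the main correlations are also given without these 3 libraries. The sperm and late germ cell miRNAs (miR-34b, miR-34c, miR-449a, miR-449b and miR-449c) were counted in all 20 libraries, 5 of 5, with a summed level of 32093 to 77203 in HF and 25829 to 54584 in LF bulls. Some epithelial miRNAs were also high, with 6 of 7 in every library and a sum of 17050 to 24349 in HF and 17693 to 27773 in LF bulls. Nearly all of it was bta-miR-375, bta-miR-200a and bta-miR-200b, with means of 10607.5, 6567 and 4118. bta-miR-141 and bta-miR-205 had means of 68.7 and 23.6. The leukocyte list, 4 of 6 in every library, summed to 1640 to 6347 in HF and 2131 to 7663 in LF bulls. Nearly all of that sum was bta-miR-146a, while the defining bta-miR-223 had a mean of 2.02 and was at 0 in 4 libraries. By RT-PCR, the paper reports no signal of leukocytes (PTPRC), epithelial cells (CDH1) or germ cells (KIT) in the sperm RNA it tested. The sums were 21.7 to 100.4 (HF) and 20.0 to 82.7 (LF) for red blood cells, with 2 of 3 in every library, 119 to 1591 and 102 to 1985 for muscle, with 2 of 6, and 73.5 to 417 and 113 to 647 for endothelium and stroma, with 2 of 5.

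The first question was how much of the sperm miRNA pool the family made up and which members carried it. Together the 7 members were 6.87% ± 1.29 (SD, n = 20) of the miRNA reads, from 3.53% in HF replicate 17 to 9.55% in HF replicate 3. The share was 6.70% ± 1.5 (SD, n = 10) in HF bulls, from 3.53% to 9.55%, and 7.04% ± 1.09 (SD, n = 10) in LF bulls, from 4.75% to 8.16%, so the groups overlapped almost fully. In the 17 libraries with at least 500000 reads the share was 7.15% ± 0.933 (SD). The let-7 family with miR-98 (10 rows), another group with a shared seed and several loci, made up 2.02% ± 0.426 (SD, n = 20), and the miR-29 family (6 rows) 0.308% ± 0.0671 (SD, n = 20). The summed miR-30 level was above both of these in 20 of 20 bulls.

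bta-miR-30d carried most of the family. It was 82.1% ± 2.42 (SD, n = 20) of the miR-30 reads, from 75.8% to 85.4% in a library. Its mean of 56614 ± 11464 (SD, n = 20) was the second highest of the table, after bta-miR-100 at 403777 ± 75577 and close to bta-miR-21-5p at 54410 ± 10445. Within a library it ranked 2nd in 11 bulls and 3rd in 7, its lowest place was 8th, and it was above bta-miR-21-5p in 11 of 20 bulls. Dominance of 1 member was not shared by let-7, whose leading member, bta-let-7a-5p, held 30.6% ± 3.44 (SD, n = 20) of its family, but bta-miR-29a held 95.1% ± 0.977 (SD, n = 20) of the miR-29 reads.

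The other members followed far below it. bta-miR-30e-5p had a normalized count of 5225 ± 1082 (SD, n = 20) and bta-miR-30a-5p 4914 ± 1425, at rank 28 and 29 of the table and at 7.67% and 7.11% of the family. bta-miR-30c followed with 1393 ± 394 and bta-miR-30b-5p with 733 ± 311. bta-miR-30f, from the gene beside MIR30A, reached only 23.1 ± 10.1 on a median of 21 reads per library. bta-miR-30b-3p was near the limit of detection at 2.49 ± 2.53, with 54 reads in all 20 libraries against 17802 of the 5p arm of its hairpin, or 3.03 reads per 1000.

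**Figure D1:**
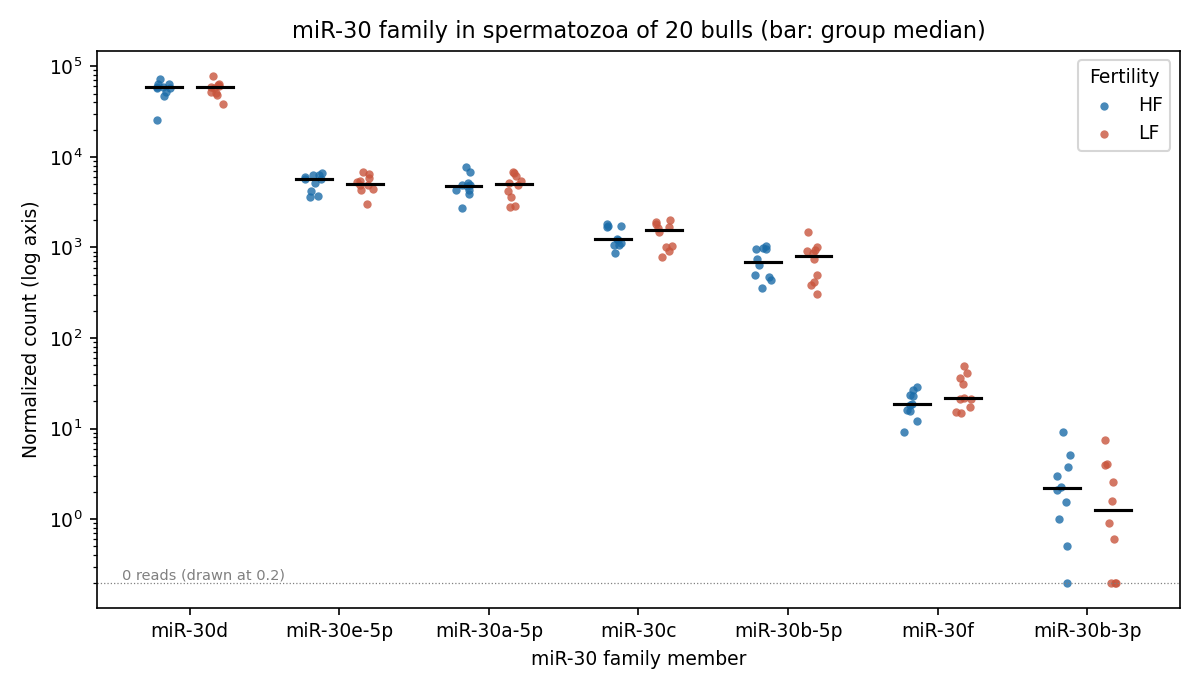
Normalized counts (log axis) of the 7 miR-30 family members in each of 10 HF and 10 LF bulls, in order of mean level, with the group median as a bar and libraries with 0 reads drawn at 0.2. Members spread from 25680 to 77996 for miR-30d down to 0 to 9.19 for miR-30b-3p, while the HF and LF points of each member overlap.

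Neighbours in this order were compared within each bull on log2(normalized count + 1), by a two-sided paired permutation test with Benjamini-Hochberg adjustment over the 6 neighbours. bta-miR-30d was 10.8-fold above bta-miR-30e-5p, with a mean log2 ratio of 3.44 ± 0.26 (SD, n = 20) and a range from 6.97-fold in HF replicate 17 to 15.9-fold in HF replicate 6. bta-miR-30e-5p and bta-miR-30a-5p did not differ beyond their spread, at a mean log2 ratio of 0.12 ± 0.27 (SD, n = 20), with 30e higher in 12 of 20 bulls (permutation test, adjusted p = 0.066). bta-miR-30a-5p was 3.52-fold above bta-miR-30c and bta-miR-30c 2.00-fold above bta-miR-30b-5p, each in 20 of 20 bulls. bta-miR-30b-5p was 30.1-fold above bta-miR-30f, and bta-miR-30f was above bta-miR-30b-3p, again in 20 of 20 bulls. For these 5 neighbours that differed, the adjusted p-value of 2.4e-05 from the permutation test rests on the smallest p-value that its resamples can give.

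Members from neighbouring genes stood apart in level. bta-miR-30d ranked 2 and bta-miR-30b-5p 73 in the table, bta-miR-30a-5p 29 and bta-miR-30f 245, and bta-miR-30e-5p 28 and bta-miR-30c 54. Levels of different miRNAs also depend on how well each is ligated and on the assignment of reads between near-identical sequences, such as miR-30a, miR-30d and miR-30e. The separate levels of the members are therefore uncertain. The values of all 7 members came out as whole reads throughout, within 0.01 of a read. How far reads are shared among the members was not tested, also for bta-miR-30f with its median of 21 reads. Such sharing could also enter the correlations between members given below.

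The second question was whether the members differed between HF and LF bulls. No member (0 of 7) was called by limma on log2(normalized count + 1) at the thresholds used here, 0.05 for the unadjusted p-value together with 1.5 for the fold change, nor by edgeR or DESeq2 on the reads. All 7 members passed the filter on low values. Of the 435 miRNAs tested, 9 were called, or 2.07%, against which 0 of 7 members is near the background. At an unadjusted p-value under 0.05 alone there were 15 miRNAs, or 3.45%, and again 0 members. After adjustment 0 of the 435 miRNAs were under 0.05, the lowest adjusted p-value from limma being 0.92. The median log2 fold change (HF over LF) was -0.03 over the members and 0.01 over all miRNAs tested, and the median absolute log2 fold change was 0.06 and 0.20. These sets were not matched for level. Only 61 miRNAs had a mean of at least 1000, among them bta-miR-30d, bta-miR-30e-5p, bta-miR-30a-5p and bta-miR-30c. The members with the lowest means, bta-miR-30f and bta-miR-30b-3p, had log2 fold changes of -0.43 and 0.39. Higher in HF were 3 members and lower 4, against 218 and 217 of all miRNAs.

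bta-miR-30d ran from 25680 to 73191 with a median of 58685 in HF bulls, and from 38493 to 77996 with a median of 58371 in LF bulls. The lowest HF value was that of the shallowest library, and the groups overlapped almost fully, with 5 of 10 HF bulls higher than the median LF bull. The log2 fold change of bta-miR-30d was -0.05 (standard error 0.16, 95% interval -0.37 to 0.27, adjusted p = 0.98 from limma), which corresponds to a fold between 0.776 and 1.21.

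bta-miR-30e-5p lay between 3652 and 6671 (median 5702) in HF and between 3008 and 6853 (median 5071) in LF bulls. The LF range enclosed the HF range, and 7 of 10 HF bulls exceeded the median LF bull. For bta-miR-30e-5p the log2 fold change was 0.06 (standard error 0.15, interval -0.25 to 0.38, adjusted p = 0.96 from limma).

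bta-miR-30a-5p lay between 2730 and 7814 (median 4797) in HF and between 2789 and 6828 (median 5026) in LF bulls. Here the HF range enclosed the LF range, and the 3 lowest bulls were those with the 3 shallowest libraries, at 2730, 2789 and 2842. The log2 fold change was 0.04 (standard error 0.19, interval -0.35 to 0.44, adjusted p = 0.98 from limma).

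bta-miR-30c lay between 873 and 1815 (median 1230) in HF and between 775 and 2030 (median 1569) in LF bulls. The LF range enclosed the HF range at both ends. The log2 fold change was -0.06 (standard error 0.19, interval -0.45 to 0.34, adjusted p = 0.98 from limma). For bta-miR-30a-5p, bta-miR-30c, bta-miR-30d and bta-miR-30e-5p, 4 of the 7 members, the 95% interval lay wholly within a 1.5-fold difference in either direction.

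bta-miR-30b-5p was wider, between 354 and 1035 (median 687) in HF and between 309 and 1490 (median 801) in LF bulls. Both the lowest and the highest bull were LF, and the log2 fold change was -0.03 (standard error 0.27, interval -0.59 to 0.53, adjusted p = 0.99 from limma). Its sign turned with 9 of the 20 bulls left out in turn, within -0.15 to 0.10, so no direction can be given.

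bta-miR-30f had the largest log2 fold change in size of the 7 members. It lay between 9.09 and 28.99 (median 18.6) in HF and between 14.9 and 49.6 (median 21.5) in LF bulls. The groups overlapped, but 4 LF bulls, replicates 5, 8, 13 and 20, were above every HF bull. The group means were 19.2 ± 6.31 and 27.0 ± 12.0 (SD, n = 10 each). The log2 fold change was -0.43 (standard error 0.26, interval -0.96 to 0.11, unadjusted p = 0.11, adjusted p = 0.94 from limma), a fold of 0.743 with an interval from 0.513 to 1.08. It was not past the threshold in any alternative or with any bull left out, the lowest unadjusted p-value over the alternatives being 0.066 from DESeq2. Between 2 and 60 reads per library stood behind these values. The leukocyte list had a median sum of 2782 in HF and 4230 in LF bulls, of which bta-miR-146a was 96.5%, and its part in the difference was not tested. By limma the 6 miRNAs of the list did not share a direction, with log2 fold changes of -0.998 for bta-miR-155, -0.52 for bta-miR-146a, -0.51 for bta-miR-223, -0.22 for bta-miR-142-5p, 0.46 for bta-miR-142-3p and 0.63 for bta-miR-150, and adjusted p-values of 0.92 to 0.96. Of these, bta-miR-155 was past both thresholds before adjustment (limma, unadjusted p = 0.0033).

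bta-miR-30b-3p had 0 reads in 1 HF and 3 LF libraries and at most 13 reads in any. The libraries at 0 allow a value of up to 2.97 to 9.27, taking 3 reads as the limit, which covers counting error only. It was at or above 3 reads in 9 of 20 bulls. The highest value, 9.19 in HF replicate 17, was 1 read in the shallowest library. Its log2 fold change of 0.39 (interval -0.57 to 1.36, adjusted p = 0.96 from limma) turned to -0.11 without the 3 shallow libraries.

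**Figure D2:**
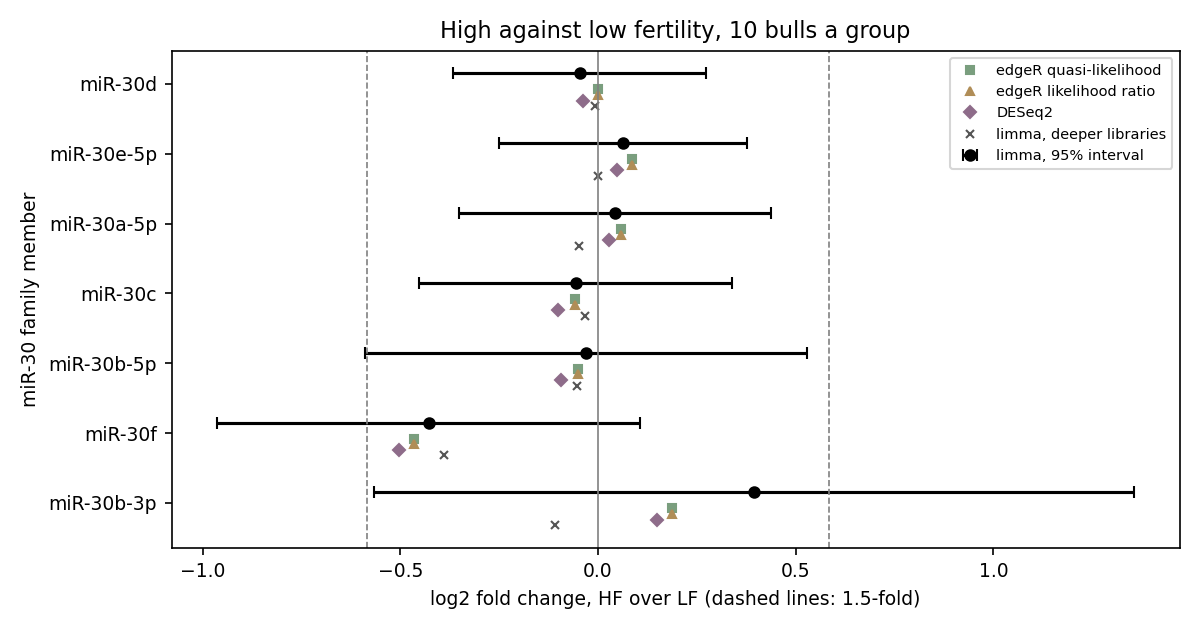
log2 fold change (HF over LF, 10 bulls a group) of each member from limma with its 95% interval (black), beside edgeR, DESeq2 and the limma fit on the deeper libraries, with 1.5-fold marked by dashed lines. Every interval includes 0, the intervals of miR-30d, miR-30e-5p, miR-30a-5p and miR-30c lie within the dashed lines, and miR-30f is lowest at -0.43.

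The third question was whether the members rose and fell together from bull to bull. Each value here is 1 library of 1 bull, so the spread joins differences between bulls with those of library preparation. bta-miR-30d varied with a coefficient of variation of 20.2% and bta-miR-30e-5p with 20.7%, where counting alone gives 0.609% and 1.87%. It was 29.01% for bta-miR-30a-5p and 28.3% for bta-miR-30c, close to the median of 25.9% over the 61 miRNAs with a mean of at least 1000, and 42.4% for bta-miR-30b-5p. For bta-miR-30f it was 43.9%, where counting alone gives 28.04%.

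Correlations were computed for all 21 pairs of members on log2(normalized count + 1) over the 20 bulls, with two-sided permutation tests adjusted over the 21 pairs. Of these, 19 were above 0, with a median r of 0.38, and 7 had an adjusted p-value under 0.05. Over the 1596 pairs of the other 57 miRNAs with a mean of at least 1000 the median r was 0.08, with a range from -0.82 to 1.00. The means of bta-miR-30b-5p, bta-miR-30f and bta-miR-30b-3p are below that limit, and the difference in medians was not tested. Closer relations to single miRNAs outside the family are given below. The 7 pairs were the 3 among bta-miR-30a-5p, bta-miR-30d and bta-miR-30e-5p, the 3 among bta-miR-30b-5p, bta-miR-30c and bta-miR-30f, and bta-miR-30d with bta-miR-30c. These trios were seen in the data and were therefore not tested as groups.

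In the first trio, bta-miR-30e-5p and bta-miR-30a-5p had r = 0.79 and rho = 0.74 (permutation test, adjusted p = 0.00063 and 0.0022). bta-miR-30d with bta-miR-30a-5p had r = 0.72 and rho = 0.62 (permutation test, adjusted p = 0.00063 and 0.015), and bta-miR-30d with bta-miR-30e-5p r = 0.70 and rho = 0.71 (permutation test, adjusted p = 0.0031 and 0.0039). Without the 2 bulls farthest from the median of the first-named member, r was 0.83, 0.55 and 0.56. In the 17 deeper libraries r was 0.63, 0.53 and 0.52 in the same order, and only the pair of bta-miR-30e-5p and bta-miR-30a-5p was still under 0.05 (permutation test, adjusted p = 0.034, against 0.11 for both others). Within HF bulls r was 0.68, 0.66 and 0.60, and within LF bulls 0.89, 0.87 and 0.92. These subsets hold fewer bulls, and in the deeper libraries each r was also lower than over the 20 bulls. The cause was not tested.

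In the second trio, bta-miR-30c and bta-miR-30b-5p had r = 0.82 and rho = 0.75 (permutation test, adjusted p = 0.00063 and 0.0022), and bta-miR-30c and bta-miR-30f r = 0.72 and rho = 0.78 (permutation test, adjusted p = 0.0016 and 0.0017). For bta-miR-30b-5p and bta-miR-30f it was r = 0.59 and rho = 0.65 (permutation test, adjusted p = 0.02 and 0.0087). Without the 2 bulls farthest from the median, r was 0.82, 0.75 and 0.60. In the deeper libraries r was 0.85, 0.73 and 0.63 (permutation test, adjusted p = 0.0023, 0.0094 and 0.034), about as high as with the shallow ones. Within HF bulls r was 0.78, 0.61 and 0.79, and within LF bulls 0.84, 0.84 and 0.53.

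Between the trios the 9 pairs had a median r of 0.38 over all bulls, from -0.05 to 0.53, and a median of 0.21 in the deeper libraries. The pair of bta-miR-30d and bta-miR-30c, at r = 0.53 and rho = 0.50 (permutation test, adjusted p = 0.028 and 0.068), fell to r = 0.23 without the 2 bulls farthest from the median and so rested on them. Without HF replicate 17 alone it was 0.45.

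The 3 pairs of neighbouring genes all lie between the trios. bta-miR-30d and bta-miR-30b-5p had r = 0.38 and rho = 0.56 (permutation test, adjusted p = 0.19 and 0.034), bta-miR-30e-5p and bta-miR-30c r = 0.40 and rho = 0.20 (permutation test, adjusted p = 0.17 and 0.49), and bta-miR-30a-5p and bta-miR-30f r = -0.05 and rho = 0.13 (permutation test, adjusted p = 0.84 and 0.64). Their median r of 0.38 was the same as that over the 9 pairs between the trios, of which they are part. Over the 12 pairs of the 5p members that are not neighbours the median was 0.56, but these include all pairs within the trios. Whether these medians differ was not tested, and all pairs share the scaling of each library.

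**Figure D3:**
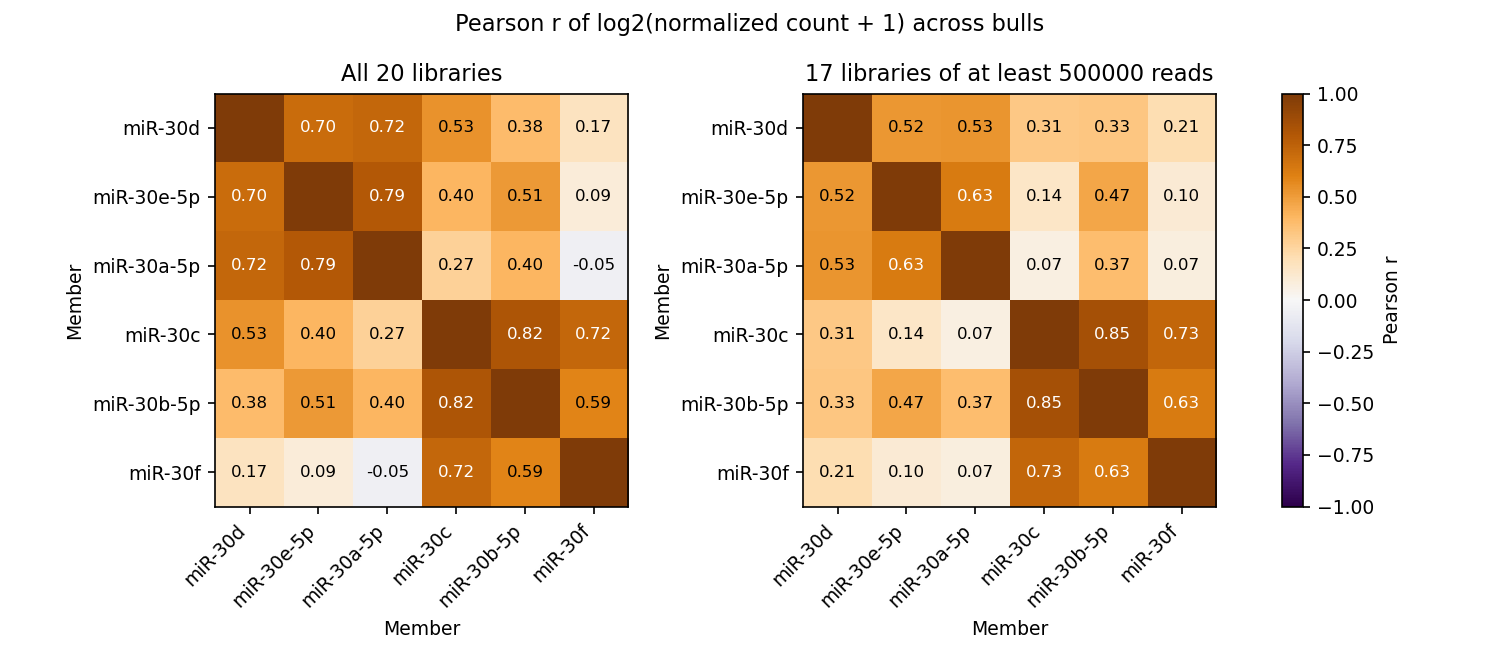
Pearson r of log2(normalized count + 1) between the 6 members other than miR-30b-3p across all 20 bulls (left) and across the 17 libraries of at least 500000 reads (right). Values within the 2 trios are the highest in both, from 0.59 to 0.82 on the left, and those of miR-30d with miR-30e-5p and miR-30a-5p fall to 0.52 and 0.53 on the right.

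Single bulls showed how far the trios could part. In LF replicate 13, one of the shallow libraries, bta-miR-30a-5p was at 2842, near the lowest of all bulls, while bta-miR-30f was at its highest, 49.6 on 27 reads, and bta-miR-30c at 1906. There bta-miR-30a-5p was 1.49-fold above bta-miR-30c, against 6.59-fold in LF replicate 1, which had the highest bta-miR-30d (77996) and bta-miR-30e-5p (6853). Of the second trio, bta-miR-30b-5p was highest in LF replicate 18 (1490) and lowest in LF replicate 7 (309), so LF bulls stood at both of its ends. LF replicate 11, also shallow, had the lowest level of bta-miR-30c (775) and of bta-miR-30e-5p (3008).

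**Figure D4:**
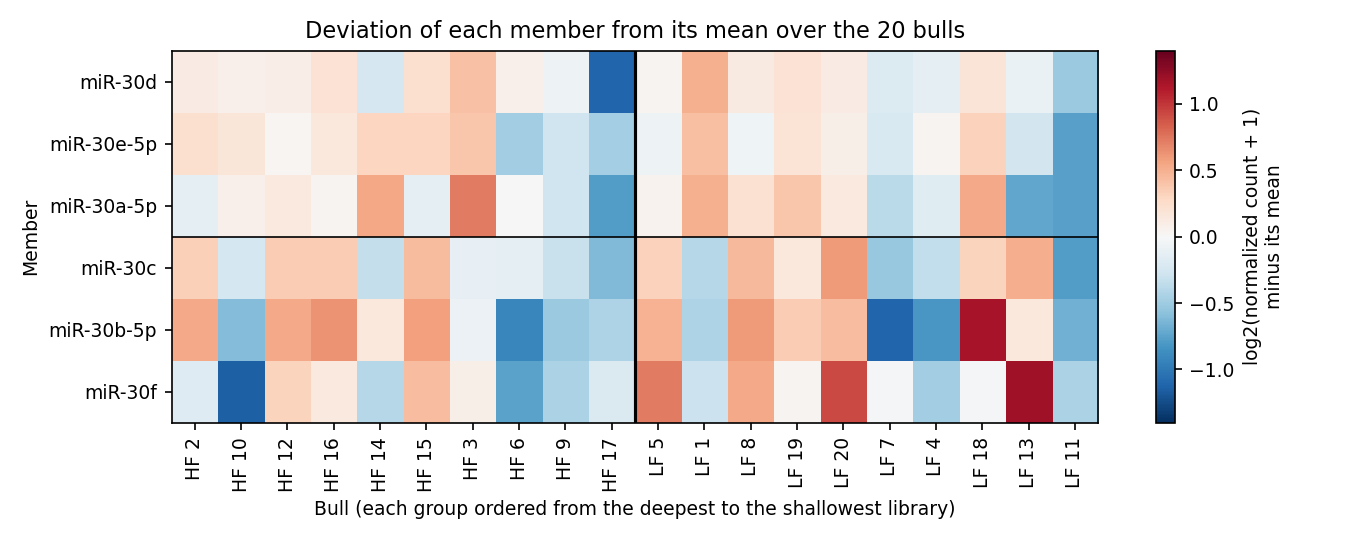
Deviation of each of the 6 members other than miR-30b-3p from its own mean over the 20 bulls, on the log2(normalized count + 1) scale, with bulls of each group ordered from the deepest to the shallowest library. miR-30d, miR-30e-5p and miR-30a-5p stand above the horizontal line and miR-30c, miR-30b-5p and miR-30f below it, and the 2 sets part in bulls such as LF 13 (miR-30a-5p at 2842, miR-30f at 49.6) and LF 1.

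Depth and the marker lists were set beside each of the 6 members other than bta-miR-30b-3p, 42 relations in all. bta-miR-30d followed the log2 number of reads per library with r = 0.73 and rho = 0.44 (permutation test, adjusted p = 0.027 and 0.21), and r fell to 0.19 without the 2 libraries of most extreme depth. For bta-miR-30e-5p it was r = 0.64 and rho = 0.47 (permutation test, adjusted p = 0.027 and 0.21), and 0.41 without those 2. For bta-miR-30a-5p, bta-miR-30c and bta-miR-30b-5p r was 0.56, 0.49 and 0.37 (permutation test, adjusted p = 0.058, 0.12 and 0.28). For bta-miR-30f it was r = 0.04 and rho = 0.18 (permutation test, adjusted p = 0.90 and 0.79). Those 2 libraries were HF replicate 17 and LF replicate 11, and the relation of bta-miR-30d to depth rested on them. In the 17 deeper libraries r was 0.09 for bta-miR-30d and 0.31 for bta-miR-30e-5p. It was -0.06 for bta-miR-30a-5p, 0.35 for bta-miR-30c and 0.34 for bta-miR-30b-5p.

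Among the marker lists, the relations under 0.05 after adjustment were all with single members of the second trio. A difference from the first trio was not tested. bta-miR-30c followed the sum of the sperm and late germ cell miRNAs with r = 0.64 and rho = 0.63 (permutation test, adjusted p = 0.027 and 0.042), and bta-miR-30b-5p with r = 0.60 and rho = 0.64 (permutation test, adjusted p = 0.043 and 0.042). bta-miR-30f followed the leukocyte list with r = 0.71 and rho = 0.70 (permutation test, adjusted p = 0.016 and 0.038), and with r = 0.70 within HF and 0.63 within LF bulls. Without the 2 bulls farthest from the median of the list, r was 0.54, 0.57 and 0.69 for these, and in the 17 deeper libraries it was 0.69, 0.60 and 0.75. The germ cell sum was mostly bta-miR-34c, with a mean of 35782.5 beside 8146 for bta-miR-449a and 36.1 for bta-miR-449c. The leukocyte sum was mostly bta-miR-146a, with which bta-miR-30f had r = 0.70, and with the sum of the other 5 miRNAs of the list r was 0.74, values added after seeing the data and not tested. bta-miR-30f also followed the germ cell list by rank, with rho = 0.62 but r = 0.43 (permutation test, adjusted p = 0.042 and 0.22). With the leukocyte list bta-miR-30c had r = 0.58 and rho = 0.54 (permutation test, adjusted p = 0.056 and 0.11). bta-miR-30b-5p had r = 0.50 and rho = 0.54 with it (permutation test, adjusted p = 0.12 and 0.11). In the 17 deeper libraries these r were 0.63 and 0.50. Whether any member followed either list more closely was not tested. No relation to the epithelial, red blood cell, muscle or endothelial lists was under 0.05 after adjustment, with r between -0.38 and 0.43. The part of these cells in the levels was not tested.

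**Figure D5:**
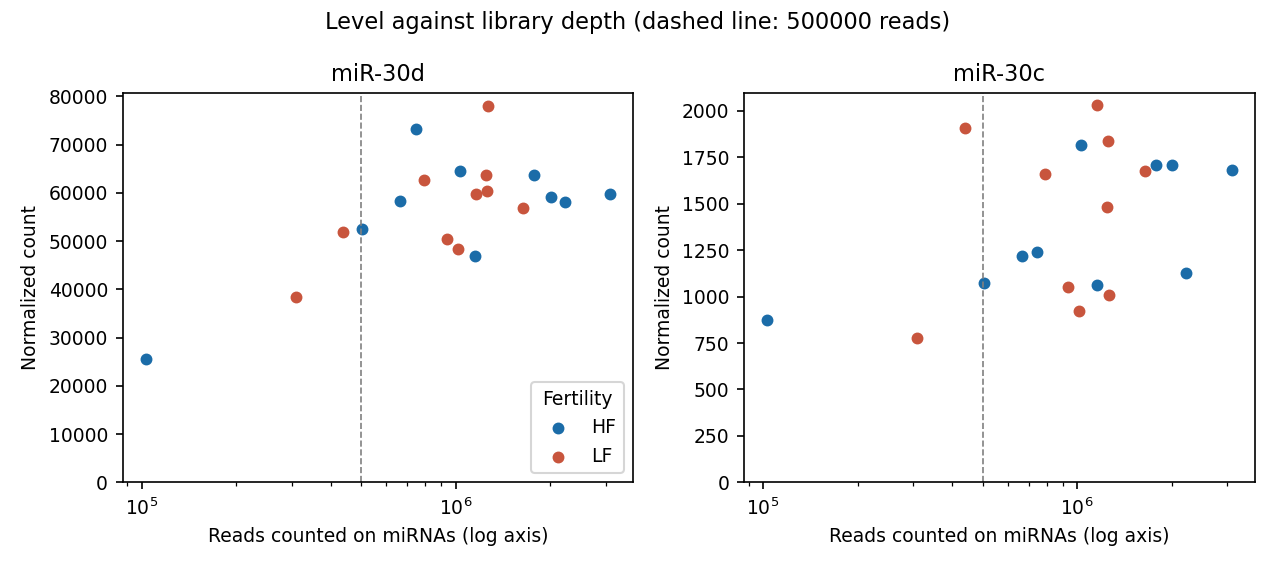
Normalized counts of miR-30d (left) and miR-30c (right) against the reads counted on miRNAs in each library (log axis), with HF and LF bulls coloured and 500000 reads marked by a dashed line. The lowest miR-30d values, 25680 and 38493, belong to the shallowest libraries, while the third shallow library is among the highest for miR-30c, at 1906.

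Outside the family, the miRNAs most like bta-miR-30d over the 20 bulls were sought among the 155 with a mean of at least 100, by Spearman's rho. They were bta-miR-148b (0.81), bta-let-7c (0.60), bta-miR-20a (0.57), bta-miR-128 (0.57) and bta-miR-212 (0.57). The same search for bta-miR-30c, added after its values were seen, gave bta-miR-192 (0.90), bta-let-7g (0.88), bta-miR-19b (0.88), bta-let-7c (0.87) and bta-let-7a-5p (0.85). bta-let-7c, of the let-7 family, stood in both lists. Within the family the highest rho was 0.71 for bta-miR-30d (with bta-miR-30e-5p) and 0.78 for bta-miR-30c (with bta-miR-30f). For bta-miR-30c all 5 listed miRNAs were above that value, and for bta-miR-30d only bta-miR-148b was. The listed miRNAs were the highest of 155, and these differences were not tested. In the 17 deeper libraries rho lay between 0.50 and 0.72 for the 5 miRNAs most like bta-miR-30d and between 0.83 and 0.92 for those most like bta-miR-30c. These values are descriptions over bulls that share library depth and scaling.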

How the data were processed

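Small RNA libraries of 20 bulls were used, grouped from the labels. The authors clipped adapters with Cutadapt, kept reads of a set length window, removed other short RNAs, aligned with Bowtie to ARS-UCD1.2 with the Y chromosome and quantified known bovine miRNAs from miRBase by miRDeep2 at its default settings. The submitters' processing notes name FastQC 0.11.8, cutadapt 2.6, R 3.4 and edgeR 3.5. The deposited values are a signal, library-scaled counts with a TMM factor, and 95.0% of those above 0 are whole multiples (within 0.01) of the commonest low value, which gave the reads. Read depth ranged from 103204 to 3097581, with a floor of 3 reads (a value of 27.6 in the shallowest library), for counting error only.

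miRNAs with a value under 1 in at least 10 bulls were removed. limma 3.58.1 (R 4.3.3) with a variance trend, no covariates and Benjamini-Hochberg adjustment was the main test. edgeR 4.0.16 and DESeq2 1.42.0 on the recovered reads, other scalings, pseudocounts, filters and left-out libraries were alternatives. Other tests were permutation tests with 100000 resamples (scipy 1.17.1). Members, lists and tests were chosen with earlier results of these data known; named are all members, their neighbours in rank, the 5 miRNAs most like bta-miR-30d, and marker lists. The labels give no batch, and p-values measure the spread between bulls joined with that of library preparation, at 1 library per bull. Mature sequences and the AI center of a bull were not used here.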

Additional observations from a re-analysis of the deposited data

How the results depend on the processing

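No member was past both thresholds in the 11 alternatives or in the 20 fits that each left out 1 bull (0 to 0). The number of miRNAs called moved from 9 to 4 with a pseudocount of 5, to 15 without a filter and to 4 with a value of at least 1 required in every bull (which leaves bta-miR-30b-3p untested), and lay between 7 and 15 with each bull left out, at 15 without HF replicate 6 and 14 without LF replicate 1, 11 or 13. The small fold changes had no stable sign. The log2 fold change of bta-miR-30d was 0.00031 with the quasi-likelihood test and 0.00037 with the likelihood ratio test, and that of bta-miR-30a-5p was -0.020 with library totals only. In the libraries of at least 500000 reads it was -0.048 for bta-miR-30a-5p, -0.11 for bta-miR-30b-3p and -0.00069 for bta-miR-30e-5p. With each bull left out it lay between -0.039 and 0.13 for bta-miR-30a-5p, -0.15 and 0.10 for bta-miR-30b-5p, -0.15 and 0.0092 for bta-miR-30c, -0.11 and 0.074 for bta-miR-30d, -0.019 and 0.12 for bta-miR-30e-5p, and -0.51 and -0.32 for bta-miR-30f. The cause was not tested. The order of levels gave 5 neighbours apart in each of 5 alternatives. Of the correlations, 7 fell to 4 in the deeper libraries (17 bulls), and to 0 within HF and 5 within LF bulls (10 each). Why these counts differ was not tested. With each bull left out the number lay between 6 and 8, an alternative chosen after seeing the data. Over the total without bta-miR-100 the family share was 11.4%. Other scalings shifted the centre of all fold changes by under 0.1 on the log2 scale. No paired analysis was possible because the HF and LF bulls are different animals and the labels give no matching between them. The reads were fewest for bta-miR-30f and bta-miR-30b-3p.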
